A study of Mus musculus with 6 samples.

Results

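The 32 genes described here encode the enzymes and transporters that carry fatty acids into mitochondria and oxidise them there, with the enzymes that use ketone bodies. They were chosen by symbol from the 54146 genes of the deposited count tables, and all 32 were found and passed the filter on low counts, as did 17308 genes in all. They were grouped by step into fatty acid activation (7 genes), the carnitine shuttle (6), acyl-CoA dehydrogenases (5), the later steps (8), electron transfer (3) and ketone bodies (3). The data are RNA-seq of whole kidneys from B6C3F1/J mice at 12 weeks of age, in 3 libraries labelled KspCre Tfam f/f (the KspCre-labelled libraries) and 3 labelled Tfam f/f (the Tfam f/f-labelled libraries). Mice of both labels carry loxP sites in both copies of Tfam, a gene whose product coats mitochondrial DNA and is needed to transcribe it. Those labelled KspCre also carry a Cre recombinase driven by the Ksp-cadherin promoter, which is active in tubule epithelium, so that vessels, stroma and immune cells of the same kidney would keep Tfam. Its activity in each tubule segment, the proximal tubule included, was not measured here. No treatment is named in the labels.

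The targeted gene went against the labels. Tfam stood at 63.1, 63.5 and 61.4 normalized CPM (counts relative to library size, scaled by TMM factors) in the KspCre-labelled libraries, against 30.3, 33.6 and 23.2 in the Tfam f/f-labelled ones (log2 fold change 1.11, SE 0.14, edgeR adjusted p = 0.00107). The level was thus higher where the label names Cre. Groups are named throughout by label, and "higher" and "lower" describe the KspCre-labelled libraries relative to the Tfam f/f-labelled ones, not known genotypes. Total counts over genes were 30348281 to 48899266 in the KspCre-labelled libraries and 19024208 to 34821537 in the Tfam f/f-labelled ones. The 13 mRNAs encoded by mitochondrial DNA took 10.98% to 11.05% and 2.386% to 5.675% of these counts.

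Fatty acids enter metabolism only after an acyl-CoA synthetase has joined them to coenzyme A. Long-chain acyl groups are then passed to carnitine by CPT1 on the outer mitochondrial membrane, carried across the inner membrane and returned to coenzyme A by CPT2. In the matrix, each turn of beta-oxidation runs through a dehydrogenase, a hydratase, a second dehydrogenase and a thiolase, and releases acetyl-CoA. The first dehydrogenase is specific for chain length and hands its electrons to the electron transfer flavoprotein. In the kidney, proximal tubule cells rely on this pathway for most of their ATP, and they also take up and oxidise ketone bodies from the blood.

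Most of the genes had higher RNA levels in the KspCre-labelled libraries. Of the 32, 21 (65.6%) were called higher and 3 (9.38%) lower at an adjusted p below 0.05 in edgeR's quasi-likelihood test with Benjamini-Hochberg adjustment over all genes, against 21.3% higher and 24.9% lower of all 17308 genes tested (24 of 32 in either direction, against 46.2%). The count of 21 genes called higher came to 12, 11 and 11 without KspCre-labelled replicate 1, 2 and 3, and to 12 when libraries were scaled by their totals alone, which moved the median of all genes to -0.46. The median log2 fold change of the 32 was 0.75, that of all genes -0.03. Every KspCre-labelled library lay above every Tfam f/f-labelled library for 25 of the 32, and below for 3, against 29.8% and 32.1% of all genes. Their summed level was 19010, 19620 and 19770 CPM in the KspCre-labelled libraries, against 7055, 9109 and 4238 CPM in the Tfam f/f-labelled ones. Acsm2 alone made up 6728, 7066 and 7071 CPM of these sums, against 858, 2115 and 342 CPM, and its 6.29-fold difference weighs on them. In a whole-kidney library, fewer cells of a type and less RNA per cell cannot be told apart. The 20 markers of the proximal tubule moved the same way: 15 were called higher and 0 lower, with a median log2 fold change of 1.66 (7 higher without any 1 KspCre-labelled library, and 4 without Tfam f/f-labelled replicate 1). Their summed level was 55900, 58660 and 57060 CPM in the KspCre-labelled libraries, against 12460, 19680 and 4644 CPM in the Tfam f/f-labelled ones, and none of the 20 was at 0 in any library. Kap alone made up 26390, 26750 and 25990 CPM of these sums, against 2801, 4391 and 952 CPM, and its 9.72-fold difference weighs on them. Slc27a2, a fatty acid activation gene, is among the 20 and also among the other pathway genes below. The part of the proximal tubule markers in the results on the 32 genes was not tested.

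By step, the median log2 fold change was 1.74 for the ketone body genes, 1.42 for activation, 0.78 for electron transfer, 0.70 for the carnitine shuttle, 0.63 for the dehydrogenases and 0.38 for the later steps. All 3 ketone body genes and 3 of the 8 genes of the later steps (37.5%) were called higher, against 21.3% of all tested genes. Both steps had 0 genes called lower, against 24.9% of all tested genes. Differences between steps were not tested.

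**Figure D1:**
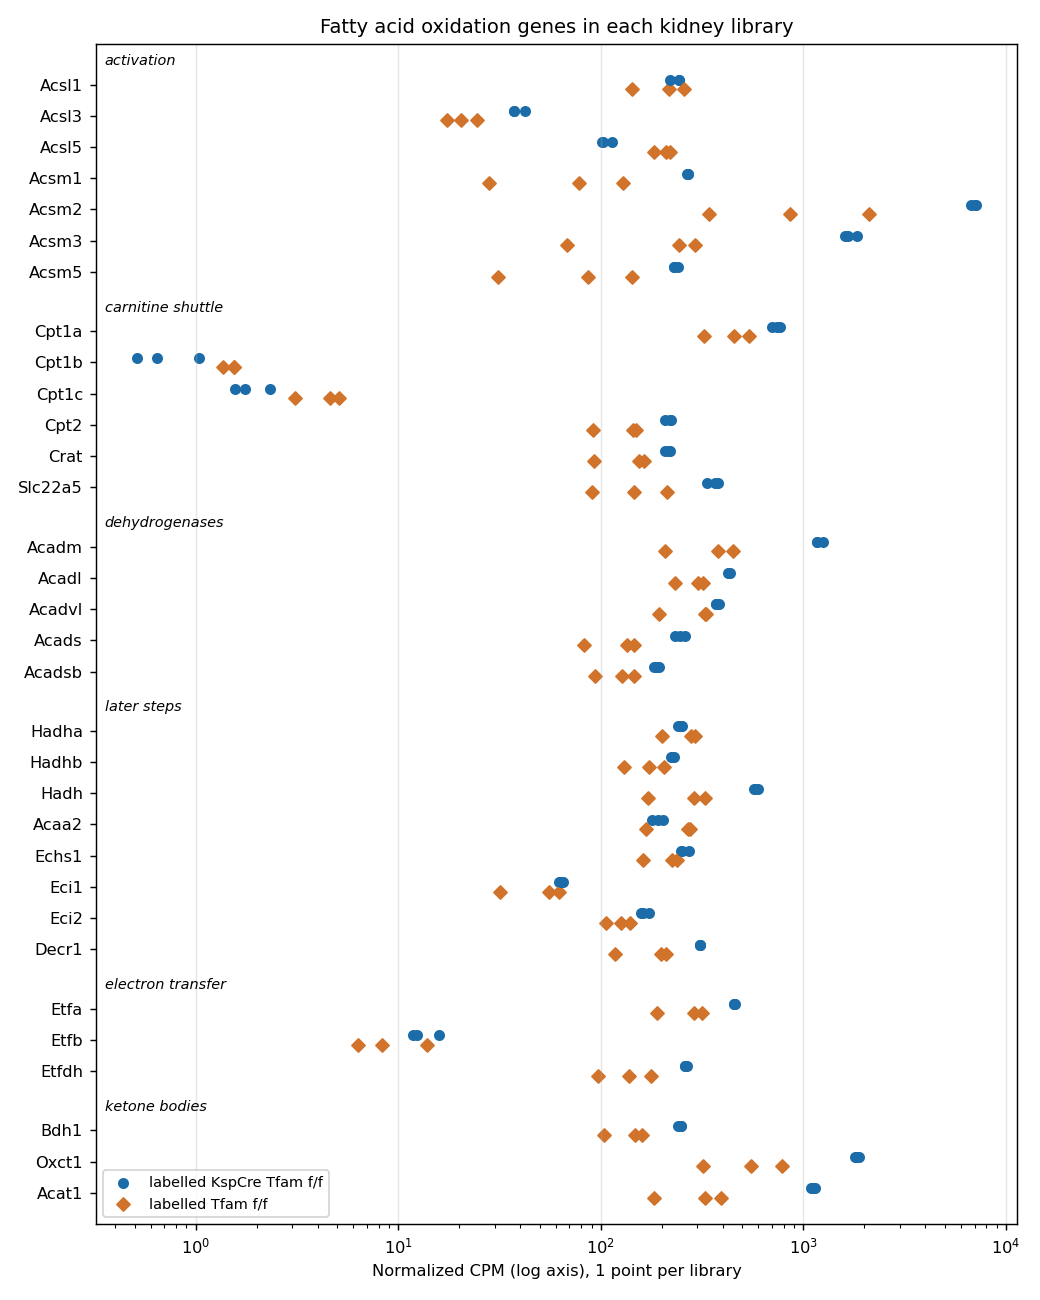
Normalized CPM on a log axis of each of the 32 genes, by step, with 1 point per library: circles for the 3 KspCre-labelled libraries, diamonds for the 3 Tfam f/f-labelled ones. The circles lie right of all diamonds for 25 genes and left of them for Acsl5, Cpt1b and Cpt1c, and the diamonds are more widely spread for all genes except Cpt1b.

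**Figure D2:**
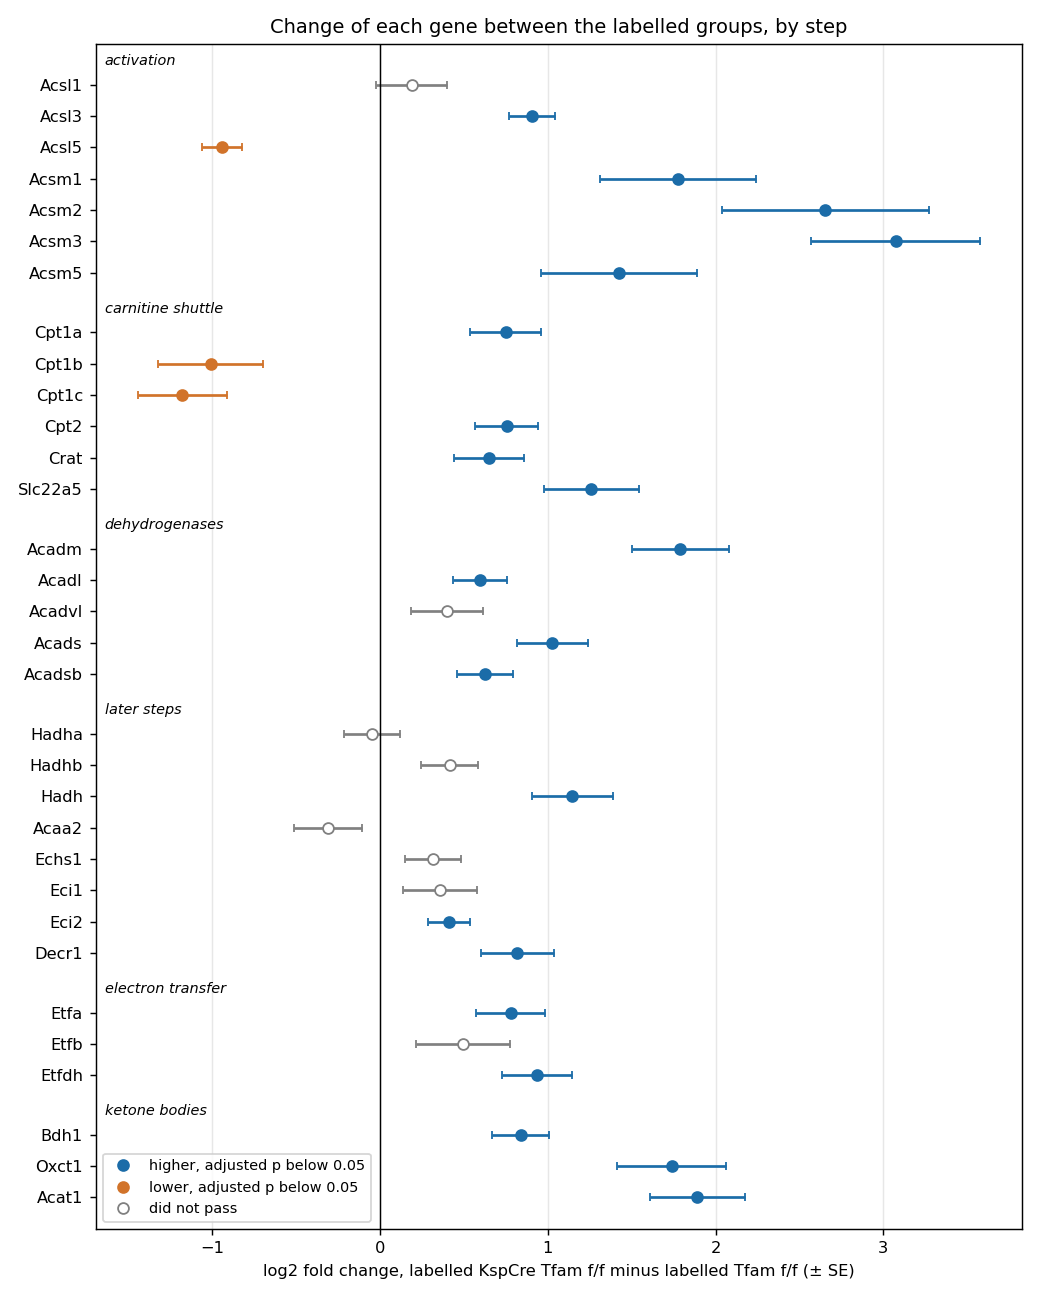
Log2 fold change of each gene, KspCre-labelled minus Tfam f/f-labelled, with its SE as a bar; filled points passed an adjusted p of 0.05 and open ones did not. The highest values are those of Acsm3 (3.07) and Acsm2 (2.65), and the 3 genes called lower are Acsl5, Cpt1b and Cpt1c.

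The Tfam f/f-labelled libraries varied more among themselves. The median coefficient of variation of the 32 genes was 2.89% over the KspCre-labelled libraries and 27.8% over the Tfam f/f-labelled ones, beside 7.22% and 18% for all tested genes. The spread was wider in the Tfam f/f-labelled libraries for 31 of the 32, Cpt1b being the exception. Tfam f/f-labelled replicate 3 was the lowest library of its group for 29 of the 32 genes, and replicate 2 the highest for 21. The same replicate 3 had the lowest sum of proximal tubule markers and the highest sum of 12 macrophage markers. That sum was 155 to 175 CPM in the KspCre-labelled libraries, against 329, 225 and 714 CPM in Tfam f/f-labelled replicates 1, 2 and 3. Of those 12 markers, 0 were called higher and 11 lower, and none was at 0 in any library. The part of macrophage RNA in these results was not tested.

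Promoter sequences of 5 genes are shown here, because they cover the largest change (Acsm2 and Acsm3), the highest of the dehydrogenases (Acadm), a gene that did not pass (Hadhb) and one called lower (Acsl5). Each runs 5′ to 3′ on the gene's strand, as the 250 bases before the transcription start and the 50 bases from it on (RefSeq, GRCm38.p6, the mm10 assembly), and the capitals mark CG dinucleotides. The windows are Acsm2 at chr7:119554090-119554389 (plus strand), Acsm3 at chr7:119760673-119760972 (plus), Acadm at chr3:153944594-153944893 (minus), Hadhb at chr5:30155003-30155302 (plus) and Acsl5 at chr19:55253119-55253418 (plus).
Acsm2: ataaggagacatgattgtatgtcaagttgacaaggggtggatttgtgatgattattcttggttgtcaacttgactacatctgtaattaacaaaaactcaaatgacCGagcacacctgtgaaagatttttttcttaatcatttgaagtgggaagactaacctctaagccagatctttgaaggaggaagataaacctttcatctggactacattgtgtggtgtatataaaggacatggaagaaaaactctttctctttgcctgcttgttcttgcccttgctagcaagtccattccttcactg
Acsm3: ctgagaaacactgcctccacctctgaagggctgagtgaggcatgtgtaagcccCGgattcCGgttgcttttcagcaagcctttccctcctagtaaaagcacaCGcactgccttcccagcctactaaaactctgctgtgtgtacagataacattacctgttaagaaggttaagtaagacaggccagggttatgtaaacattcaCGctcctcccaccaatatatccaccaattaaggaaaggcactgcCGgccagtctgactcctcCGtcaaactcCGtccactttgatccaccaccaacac
Acadm: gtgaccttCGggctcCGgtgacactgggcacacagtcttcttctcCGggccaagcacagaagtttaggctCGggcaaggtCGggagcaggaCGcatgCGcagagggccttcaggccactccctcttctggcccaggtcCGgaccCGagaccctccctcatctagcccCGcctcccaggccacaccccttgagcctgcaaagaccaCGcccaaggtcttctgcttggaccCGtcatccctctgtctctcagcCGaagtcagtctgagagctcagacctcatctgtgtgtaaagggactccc
Hadhb: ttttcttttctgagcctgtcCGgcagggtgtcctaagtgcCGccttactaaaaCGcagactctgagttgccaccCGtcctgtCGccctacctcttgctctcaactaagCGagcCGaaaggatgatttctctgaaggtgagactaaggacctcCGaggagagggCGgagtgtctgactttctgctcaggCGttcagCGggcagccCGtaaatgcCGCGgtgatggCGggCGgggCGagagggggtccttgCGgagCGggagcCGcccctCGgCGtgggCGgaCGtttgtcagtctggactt
Acsl5: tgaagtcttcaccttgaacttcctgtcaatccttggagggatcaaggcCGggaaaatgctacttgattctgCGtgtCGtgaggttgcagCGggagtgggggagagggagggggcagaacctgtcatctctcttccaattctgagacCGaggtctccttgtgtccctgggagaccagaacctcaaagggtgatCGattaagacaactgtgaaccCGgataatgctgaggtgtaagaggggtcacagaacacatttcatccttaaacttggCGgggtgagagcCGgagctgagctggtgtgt
Of the 32 genes, 27 had a window of 300 bases in the RefSeq table. The windows of the 4 ACSM genes held 1 to 7 CG dinucleotides each, counting the highest window of a gene. The other 23 genes held 8 to 34, with a median of 17, and all 32851 windows of the table had a median of 7 and quartiles of 3 and 20. By this count, the ACSM genes, with some of the largest changes, were the poorest in CG among the 27. Single windows of other genes fell in the ACSM range, with 4 in a lower window of Acsl1 and 7 in one of Bdh1. Acsm2 also had 2 windows, and the one shown held 1 CG dinucleotide, the other 4. The windows were also searched on both strands for 7 motifs. The direct repeat bound by PPAR-alpha with RXR, 2 copies of AGGTCA with 1 base between them, was found in 0 of the 27 genes and in 0.0396% of all windows. The single sites CAAAGGTCA and TCAAGGTCA, of HNF4A and of estrogen-related receptors, also hold AGGTCA and were found in 0 of the 27, and in 0.478% and 0.423% of all windows. TGATGCAA, a site of ATF4 with CEBP factors, was found in Echs1 only (0.895% of all windows). GGGCGG, the Sp1 box, was found in 18 genes and none of the ACSM genes (35.7% of all windows), and CCAAT in 13 (37.4%). TATAAA was found in Acsm2 only, starting at base 223 of the window shown, and in 13.6% of all windows. Such a match describes letters only, and these short windows leave out the introns and distal elements in which many known sites of these factors lie.

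Activation held the genes with the largest changes, and all 4 medium-chain acyl-CoA synthetases (ACSM) were called higher. These matrix enzymes activate medium-chain fatty acids and aromatic acids such as benzoate, and their genes lie together within 268 kb of chromosome 7 (chr7:119519463-119787513). Acsm2, the kidney-enriched member of the family, had 6728, 7066 and 7071 CPM in the KspCre-labelled libraries, against 858, 2115 and 342 CPM in the Tfam f/f-labelled ones. The groups did not overlap, and the 3 Tfam f/f-labelled libraries differed widely among themselves (log2 fold change 2.65, SE 0.61, adjusted p = 0.0110).
Acsm3 had 1603, 1653 and 1833 CPM in the KspCre-labelled libraries, against 244, 292 and 68.2 CPM in the Tfam f/f-labelled ones, an 8.42-fold difference (log2 fold change 3.07, SE 0.50, adjusted p = 0.00310). Of the exonic bases of Acsm3, 39.7% overlap Eri2 on the other strand, and the strand setting of the counting is not given in the sources used here. Eri2 itself had 8.43 to 10.4 CPM and 9.66 to 12.0 CPM in the KspCre-labelled and Tfam f/f-labelled libraries.
Acsm1 stood at 268, 267 and 269 CPM in the KspCre-labelled libraries, against 78.1, 128 and 28.2 CPM in the Tfam f/f-labelled ones (log2 fold change 1.78, SE 0.47, adjusted p = 0.0181). Acsm5 stood at 241, 230 and 229 CPM, against 86.2, 143 and 31.2 CPM (log2 fold change 1.42, SE 0.46, adjusted p = 0.0388). For both, every KspCre-labelled library was above all Tfam f/f-labelled ones. All 4 genes had the same order among the Tfam f/f-labelled libraries, with replicate 2 highest and replicate 3 lowest. Without Tfam f/f-labelled replicate 1 the calls of Acsm1, Acsm2 and Acsm5 were lost (adjusted p = 0.0662, 0.0593 and 0.111). Those of Acsm1 and Acsm5 were also lost without any 1 of the KspCre-labelled libraries (adjusted p = 0.0511 to 0.0941). Over all 16 alternatives the adjusted p ran to 0.11 for Acsm1, 0.0593 for Acsm2 and 0.178 for Acsm5, and leaving out Tfam f/f-labelled replicate 2 made Acsm2 11.7-fold higher, against 6.29-fold with all libraries.

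The 3 long-chain synthetases (ACSL) did not move together. Acsl1, which activates long-chain fatty acids at the outer mitochondrial membrane and the endoplasmic reticulum, had 242, 242 and 221 CPM in the KspCre-labelled libraries, against 216, 259 and 143 CPM in the Tfam f/f-labelled ones. These ranges overlap, and Acsl1 was not called (log2 fold change 0.19, SE 0.21, adjusted p = 0.484; -0.22 when scaled by library totals and -0.02 without Tfam f/f-labelled replicate 3). Acsl3, a synthetase of the endoplasmic reticulum and lipid droplets, had 37.3, 42.4 and 37.4 CPM in the KspCre-labelled libraries, against 20.5, 24.5 and 17.4 CPM in the Tfam f/f-labelled ones, and was called higher (log2 fold change 0.91, SE 0.14, adjusted p = 0.00231).
Acsl5, found at mitochondria and the endoplasmic reticulum, had 102, 114 and 102 CPM in the KspCre-labelled libraries, against 219, 182 and 209 CPM in the Tfam f/f-labelled ones. The groups did not overlap and it was called lower (log2 fold change -0.94, SE 0.12, adjusted p = 0.00119). Acsl3 and Acsl5 kept their direction and call in all 16 alternatives.

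Taken per kilobase of each gene's principal transcript, so that genes can be set side by side, the makeup of these families differed between the labels. Acsl1 was the largest of the 3 ACSL genes in the KspCre-labelled libraries, at 63.4% ± 1.41 of their summed CPM per kilobase, against 49.2% ± 8.44 in the Tfam f/f-labelled ones (SD, n = 3 each). Acsl5 took 26.3% ± 0.958 and 45.9% ± 8.69, and was the larger share in Tfam f/f-labelled replicate 3 alone (54.6%, Acsl1 40.6%). Acsl3 took 10.4% ± 0.449 and 4.95% ± 0.387. Among the ACSM genes, Acsm2 and Acsm3 took 55.7% ± 0.968 and 33.2% ± 1.27 in the KspCre-labelled libraries, against 51.8% ± 7.10 and 25.4% ± 5.67 in the Tfam f/f-labelled ones, and only the shares of Acsm2 overlapped between the groups. Acsm1 and Acsm5 were the smaller part in both, with 6.95% ± 0.231 and 4.23% ± 0.262, against 12.8% ± 1.05 and 9.94% ± 0.771, and their shares did not overlap between the labels. Shares were not tested.

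**Figure D3:**
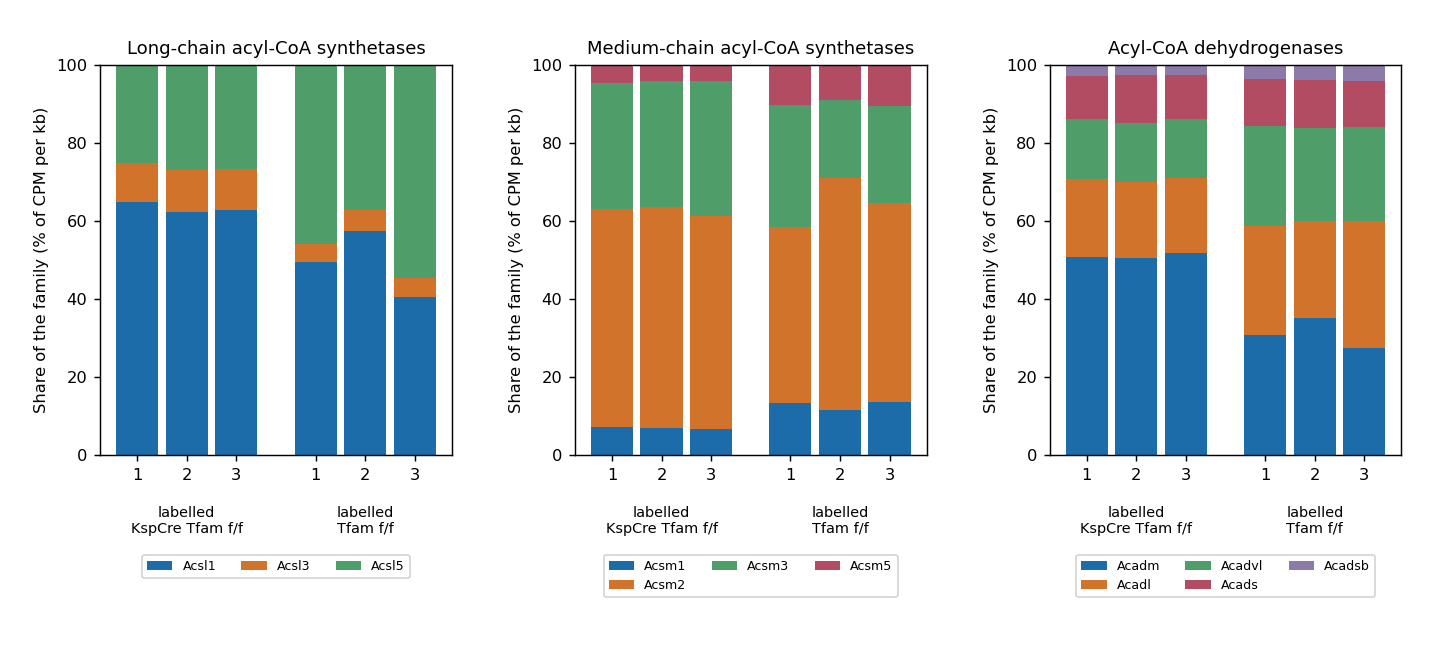
Share of each gene in the summed CPM per kilobase of its family (%, y axis) in each of the 6 libraries, for the long-chain synthetases, the medium-chain synthetases and the acyl-CoA dehydrogenases. Acadm fills 50.5% to 51.9% of its family's bar in the KspCre-labelled libraries and 27.3% to 35.01% in the Tfam f/f-labelled ones.

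The carnitine shuttle was called changed in all 6 of its genes, 4 higher and 2 lower. Cpt1a, the CPT1 form of kidney and liver that commits long-chain fatty acids to oxidation, had 703, 770 and 743 CPM in the KspCre-labelled libraries, against 454, 540 and 324 CPM in the Tfam f/f-labelled ones (log2 fold change 0.75, SE 0.21, adjusted p = 0.0231). Its partner on the inner membrane, Cpt2, had 209, 221 and 222 CPM, against 149, 145 and 91.8 CPM (log2 fold change 0.76, SE 0.19, adjusted p = 0.0145). Neither gene's groups overlapped.
Slc22a5, the OCTN2 transporter that takes up carnitine at the cell surface and reabsorbs it from the tubule, showed the largest change of the step. It had 335, 366 and 377 CPM in the KspCre-labelled libraries, against 146, 213 and 90.6 CPM in the Tfam f/f-labelled ones (2.395-fold, log2 fold change 1.26, SE 0.28, adjusted p = 0.00990). Crat, which exchanges acetyl groups between coenzyme A and carnitine, had 208, 220 and 217 CPM, against 154, 164 and 93.0 CPM (log2 fold change 0.65, SE 0.21, adjusted p = 0.0350). For both genes the lowest KspCre-labelled library was above the highest Tfam f/f-labelled one.
The other 2 forms of CPT1, which elsewhere mark muscle (Cpt1b) and brain (Cpt1c), were called lower at very low levels. Cpt1c had 67, 73 and 61 counts in the KspCre-labelled libraries and 125, 117 and 122 in the shallower Tfam f/f-labelled libraries (1.57, 1.76 and 2.33 CPM against 4.59, 3.08 and 5.12 CPM; log2 fold change -1.18, SE 0.27, adjusted p = 0.00994). Cpt1b had 22, 43 and 17 counts, against 37, 59 and 37 (0.517, 1.04 and 0.649 CPM against 1.36, 1.55 and 1.55 CPM; log2 fold change -1.01, SE 0.31, adjusted p = 0.0320). Neither gene's groups overlapped in CPM, and 81.4% of the exonic bases of Cpt1b are shared with Gm44502 on the same strand, which is listed at 0 in every library. Cpt1a made up 99.5% ± 0.0793 of the CPT1 level per kilobase in the KspCre-labelled libraries and 97.9% ± 0.892 in the Tfam f/f-labelled ones (SD, n = 3 each). The level of Cpt1b, and so these shares, are uncertain where the counting could not tell it from Gm44502.
Slc22a5 and Cpt1c kept their calls in all 16 alternatives. The calls of Cpt1a and Crat were lost without any 1 of the KspCre-labelled libraries and without Tfam f/f-labelled replicate 1 (adjusted p = 0.0632 to 0.0971), and that of Cpt2 without KspCre-labelled replicate 2 or 3 (adjusted p = 0.0508 and 0.0514). That of Cpt1b was lost without any 1 library except KspCre-labelled replicate 2 (adjusted p = 0.0513 to 0.114). Over the 16 alternatives the highest adjusted p was 0.127 for Cpt1a, 0.247 for Crat, 0.0875 for Cpt2 and 0.120 for Cpt1b.

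Among the acyl-CoA dehydrogenases, 4 of 5 were called higher and 0 lower, and the medium-chain enzyme had the largest change. Acadm had 1162, 1171 and 1251 CPM in the KspCre-labelled libraries, against 378, 451 and 208 CPM in the Tfam f/f-labelled ones (3.46-fold, log2 fold change 1.79, SE 0.29, adjusted p = 0.00289). Acads, for short chains, had 233, 260 and 247 CPM, against 135, 146 and 82.6 CPM (log2 fold change 1.03, SE 0.21, adjusted p = 0.00695). Both genes kept their calls in all 16 alternatives, with no overlap between the groups.
Acadl, for long chains, had 431, 424 and 434 CPM in the KspCre-labelled libraries, against 321, 301 and 232 CPM in the Tfam f/f-labelled ones (log2 fold change 0.59, SE 0.16, adjusted p = 0.0198). Acadsb, which acts on short branched chains from isoleucine, had 193, 183 and 188 CPM, against 127, 145 and 93.4 CPM (log2 fold change 0.63, SE 0.17, adjusted p = 0.0179). Both calls were lost without any 1 of the KspCre-labelled libraries (adjusted p = 0.0546 to 0.0709), and that of Acadsb without Tfam f/f-labelled replicate 1 (adjusted p = 0.0537). The highest adjusted p over all alternatives was 0.303 for Acadl and 0.202 for Acadsb.
Acadvl, the very-long-chain enzyme of the inner membrane that starts the oxidation of most dietary fatty acids, had 369, 371 and 383 CPM in the KspCre-labelled libraries, against 332, 326 and 194 CPM in the Tfam f/f-labelled ones. The groups did not overlap, but the difference did not pass (log2 fold change 0.40, SE 0.22, adjusted p = 0.163; -0.01 when scaled by library totals). Of its exonic bases, 42.9% overlap Dvl2 on the other strand, which had 8.20 to 10.6 CPM and 13.4 to 17.9 CPM in the KspCre-labelled and Tfam f/f-labelled libraries.
Per kilobase, Acadm was 3.34, 3.34 and 3.46 times Acadvl in the KspCre-labelled libraries, against 1.20, 1.47 and 1.14 times in the Tfam f/f-labelled ones. The ratios did not overlap (two-sided exact permutation p = 0.1, the smallest 3 against 3 libraries allow; 0.167 adjusted over 5 ratios). The share of Acadm in its family was 51.0% ± 0.771 and 31.1% ± 3.84, while the shares of Acads, at 11.5% ± 0.619 and 12.1% ± 0.242 (SD, n = 3 each), overlapped.

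The later steps of beta-oxidation had the lowest median change. Of 8 genes, 3 were called higher, 0 lower and 5 did not pass. Hadh, the short-chain 3-hydroxyacyl-CoA dehydrogenase, had 571, 597 and 579 CPM in the KspCre-labelled libraries, against 289, 328 and 172 CPM in the Tfam f/f-labelled ones (2.21-fold, log2 fold change 1.15, SE 0.24, adjusted p = 0.00775). It kept its call in all 16 alternatives, and its groups did not overlap.
The other 2 called genes serve unsaturated fatty acids. Decr1, the 2,4-dienoyl-CoA reductase, had 310, 307 and 308 CPM in the KspCre-labelled libraries, against 198, 210 and 117 CPM in the Tfam f/f-labelled ones (log2 fold change 0.82, SE 0.22, adjusted p = 0.0183). Eci2, an enoyl-CoA isomerase that shifts double bonds, had 158, 162 and 173 CPM, against 139, 125 and 106 CPM (log2 fold change 0.41, SE 0.13, adjusted p = 0.0320). Neither gene's groups overlapped. Both calls were lost without any 1 of the KspCre-labelled libraries (adjusted p = 0.0566 to 0.116; highest over all alternatives 0.0796 for Decr1 and 0.939 for Eci2, whose log2 fold change was -0.01 when scaled by library totals).
The second isomerase, Eci1, had 62.2, 65.3 and 63.9 CPM in the KspCre-labelled libraries, against 62.0, 55.5 and 31.8 CPM in the Tfam f/f-labelled ones, and did not pass (log2 fold change 0.36, SE 0.22, adjusted p = 0.216). Echs1, the enoyl-CoA hydratase for short chains, had 250, 274 and 252 CPM, against 238, 225 and 161 CPM (log2 fold change 0.32, SE 0.17, adjusted p = 0.157). In both, the 2 labels were separated by a narrow margin, and the sign turned with scaling by library totals (-0.05 and -0.10).
Acaa2, a thiolase that ends turns on shorter chains, was one of the genes whose labels overlapped, with 179, 204 and 193 CPM in the KspCre-labelled libraries, against 277, 269 and 167 CPM in the Tfam f/f-labelled ones (log2 fold change -0.31, SE 0.20, adjusted p = 0.239). Tfam f/f-labelled replicate 3 was its lowest library, and the other 2 of that label were its highest. Without that replicate 3 Acaa2 was called lower (log2 fold change -0.51, adjusted p = 0.00400; up to 0.570 over all alternatives).

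The 2 subunits of the mitochondrial trifunctional protein, which carries out the last 3 reactions on long chains, did not stand in the same ratio in the 2 labels. Hadha, the alpha subunit with the hydratase and dehydrogenase activities, had 250, 253 and 241 CPM in the KspCre-labelled libraries, against 279, 292 and 200 CPM in the Tfam f/f-labelled ones. The labels overlapped (log2 fold change -0.05, SE 0.17, adjusted p = 0.827; 0.03 and 0.07 without Tfam f/f-labelled replicate 1 and 2). Hadhb, the beta subunit with the thiolase activity, had 230, 228 and 222 CPM, against 173, 206 and 131 CPM, with no overlap, and did not pass (log2 fold change 0.42, SE 0.17, adjusted p = 0.0808; called higher without Tfam f/f-labelled replicate 2, at 0.60 and adjusted p = 0.0151, and 0.997 at the highest over all alternatives).
Per kilobase, Hadha was 0.554, 0.566 and 0.555 times Hadhb in the KspCre-labelled libraries, against 0.822, 0.722 and 0.777 times in the Tfam f/f-labelled ones (exact permutation p = 0.1, adjusted 0.167). The ratio was therefore lower in each KspCre-labelled library than in any Tfam f/f-labelled one. The genes lie head to head on chromosome 5 with 85 bases between them, and their promoter windows share 228 bases, so that the Hadhb sequence printed above also holds much of that of Hadha. Neither gene is overlapped by another over 10% or more of its exonic bases.

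**Figure D4:**
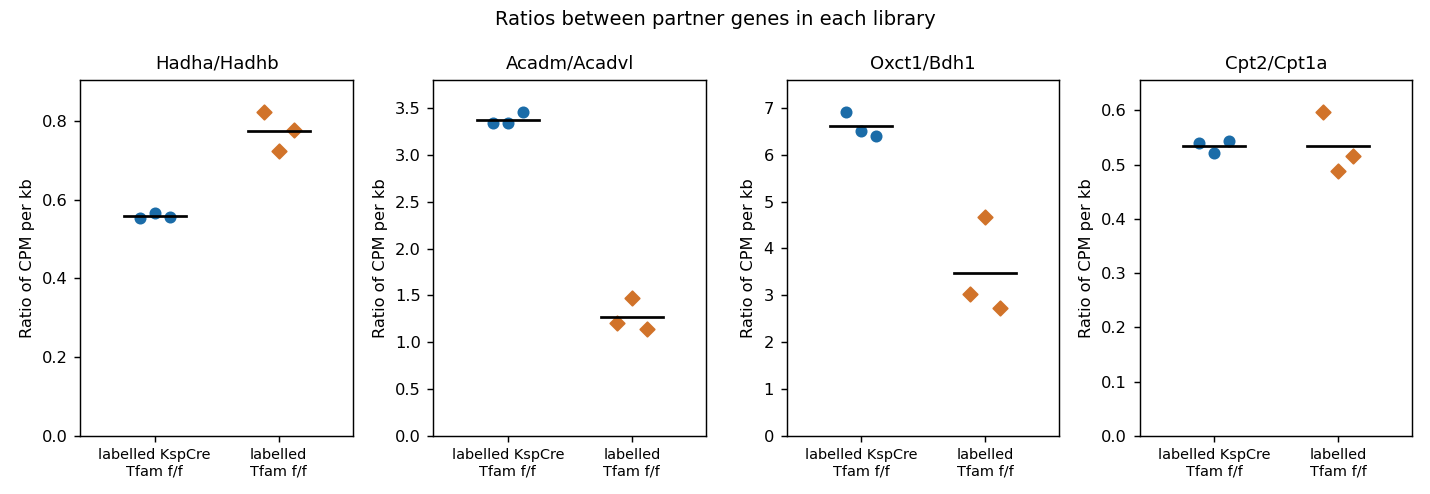
Ratio of CPM per kilobase of principal transcript (y axis, from 0) between 4 pairs of partner genes, 1 point per library with the mean of each label as a line. The labels are apart for Hadha/Hadhb, Acadm/Acadvl and Oxct1/Bdh1 and overlap for Cpt2/Cpt1a, at 0.522 to 0.543 in the KspCre-labelled libraries and 0.489 to 0.597 in the Tfam f/f-labelled ones.

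Electron transfer was called higher in 2 of 3 genes. Etfa and Etfb encode the 2 subunits of the flavoprotein that collects electrons from the acyl-CoA dehydrogenases, and Etfdh the enzyme that passes them to ubiquinone. Etfdh had 261, 266 and 261 CPM in the KspCre-labelled libraries, against 137, 177 and 97.4 CPM in the Tfam f/f-labelled ones (log2 fold change 0.94, SE 0.21, adjusted p = 0.00928). Etfa had 459, 453 and 454 CPM, against 290, 317 and 189 CPM (log2 fold change 0.78, SE 0.21, adjusted p = 0.0178). Both genes were without overlap. Etfdh kept its call in all 16 alternatives, whereas that of Etfa was lost without any 1 of the KspCre-labelled libraries (adjusted p = 0.0581 to 0.0588; highest over all alternatives 0.0915).
Etfb, the beta subunit, had 11.8, 15.9 and 12.4 CPM in the KspCre-labelled libraries and 13.8, 8.30 and 6.34 CPM in the Tfam f/f-labelled ones, and the labels overlapped (log2 fold change 0.50, SE 0.28, adjusted p = 0.177; called higher without Tfam f/f-labelled replicate 1, at 0.88 and adjusted p = 0.0252, and 0.811 at the highest over all alternatives). Per kilobase, Etfa was 18.2 to 25 times Etfb in the KspCre-labelled libraries and 13.4 to 24.5 times in the Tfam f/f-labelled ones (exact permutation p = 0.6, adjusted 0.75). Of the exonic bases of Etfb, 58.2% are shared with Gm45233 on the same strand. That gene is listed at 0 in every library, and the level of Etfb is uncertain where the counting could not tell the 2 genes apart.

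All 3 ketone body genes were called higher, and each kept its call in all 16 alternatives. Acat1, the mitochondrial acetoacetyl-CoA thiolase, had 1089, 1115 and 1139 CPM in the KspCre-labelled libraries, against 327, 391 and 184 CPM in the Tfam f/f-labelled ones (3.71-fold, log2 fold change 1.89, SE 0.28, adjusted p = 0.00218). Oxct1, whose enzyme transfers coenzyme A from succinyl-CoA to acetoacetate and is the committed step of ketone body use, had 1874, 1830 and 1794 CPM, against 549, 780 and 320 CPM (log2 fold change 1.74, SE 0.32, adjusted p = 0.00490). Bdh1, which interconverts the 2 main ketone bodies, had 240, 249 and 248 CPM, against 160, 148 and 104 CPM (log2 fold change 0.84, SE 0.17, adjusted p = 0.00675).
None of the 3 overlapped between the labels, and for Oxct1 and Acat1 the lowest KspCre-labelled library had more than 2 times the highest Tfam f/f-labelled one. Per kilobase, Oxct1 was 6.41 to 6.91 times Bdh1 in the KspCre-labelled libraries and 2.72 to 4.68 times in the Tfam f/f-labelled ones (exact permutation p = 0.1, adjusted 0.167). Antisense or noncoding neighbours overlap 12.6% of the exonic bases of Oxct1 and 13.7% of those of Bdh1, and had at most 2.85 CPM and 1.14 CPM.

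Per kilobase of principal transcript, the highest levels among the 32 genes in the KspCre-labelled libraries were those of Acsm2 (1032 ± 29.2 CPM per kilobase), Acsm3 (616 ± 43.8), Acadm (584 ± 23.9) and Oxct1 (520 ± 11.4; SD, n = 3 each). Acsm2 was above Acsm3 by far more than their spread, while the lowest value of Acsm3 and the highest of Acadm (582 and 611) crossed. Etfa, Acat1 and Hadh came next, at 327 ± 2.21, 327 ± 7.37 and 326 ± 7.36, and did not differ beyond their spread. In the Tfam f/f-labelled libraries, Etfa was highest (191 ± 48.6). Acadm (169 ± 61.0), Acsm2 (164 ± 135), Acaa2 (157 ± 40.5), Oxct1 (156 ± 65.2), Acadl (148.5 ± 24.3) and Hadh (147.1 ± 45.5) were within its spread. Acsm3 was the 2nd of the 32 in the KspCre-labelled libraries and the 13th in the Tfam f/f-labelled ones, whereas Acaa2 was the 14th and the 4th. Cpt1c and Cpt1b were the 2 lowest in both. The order rests on the transcript length used: counted over all annotated exons, Acaa2 was the 9th and the 1st, and Echs1 the 22nd in both instead of the 11th and the 8th.

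Other genes of the pathway were called in both directions, more often higher than lower. Of 79 listed, 76 were in the count tables and 73 were tested. Of these, 38 (52.1%) were called higher and 9 (12.3%) lower, against 21.3% and 24.9% of all tested genes. Their median log2 fold change was 0.50. Other enzymes of beta-oxidation and related acyl-CoA oxidation had nearly all calls in 1 direction, with 11 of 12 called higher, 0 lower and a median of 1.09. Of the other carnitine genes 3 of 5 were called higher, and the inner membrane carrier Slc25a20, which links CPT1 to CPT2, was not (74.3 ± 5.5 CPM in the KspCre-labelled libraries and 65.6 ± 9.58 CPM in the Tfam f/f-labelled ones, SD, n = 3 each; log2 fold change 0.18, adjusted p = 0.275). Of 6 genes of flavin supply 4 were called higher and 0 lower. Scaled by library totals, 22 were higher and 21 lower, with a median of 0.08 (that of all genes -0.46). The 38 genes called higher came to 23 and 25 without KspCre-labelled replicate 2 and 3, and to 25 without Tfam f/f-labelled replicate 1.
The 6 with the smallest p among those called higher were Echdc2, Crot, Acad9, Acad12, Slc52a3 and Mlycd. Crot, which moves acyl groups from peroxisomes to carnitine, had 749, 743 and 816 CPM in the KspCre-labelled libraries, against 231, 285 and 143 CPM in the Tfam f/f-labelled ones (log2 fold change 1.81, SE 0.26, adjusted p = 0.00181). Acad9, a dehydrogenase also needed to assemble respiratory complex I, had 80.6, 86.2 and 89.1 CPM, against 35.2, 47.4 and 28.4 CPM (log2 fold change 1.20, SE 0.18, adjusted p = 0.00199). Both were without overlap. Echdc2 (log2 fold change 0.88), Acad12 (1.17) and the riboflavin transporter Slc52a3 (1.28) were also apart in every library.

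Some genes were called lower. Acot2, a mitochondrial thioesterase that releases fatty acids from coenzyme A, had 22.2, 25.9 and 25.8 CPM in the KspCre-labelled libraries, against 94.9, 85.8 and 78.7 CPM in the Tfam f/f-labelled ones (log2 fold change -1.81, SE 0.11, adjusted p = 7.4e-05). Cyp4a14, an omega-hydroxylase of fatty acids, had 49.5, 49.2 and 41.4 CPM, against 435, 447 and 142 CPM (log2 fold change -2.87, SE 0.42, adjusted p = 0.00217). Both genes were lower in every KspCre-labelled library than in any Tfam f/f-labelled one.
Acsf2, a synthetase for medium chains, was also called lower (log2 fold change -2.04, adjusted p = 0.000299), as was Acsl4, a synthetase that prefers arachidonate (-0.96, adjusted p = 0.00228). Ucp3, an inner membrane carrier, had only 2, 3 and 5 counts in the KspCre-labelled libraries, against 18, 32 and 15 in the Tfam f/f-labelled ones (log2 fold change -2.90, adjusted p = 0.00317; 11.3-fold lower without KspCre-labelled replicate 3, against 7.44-fold with all libraries). A separate list held targets of PPAR-alpha, the fatty acid-sensing nuclear receptor, outside the 32 genes and the other lists of pathway genes. Of its 11 tested genes, 0 were called higher, 4 (36.4%) lower (Cyp4a14, Ucp3, Pdk4 and Fabp1) and 7 did not pass. Beside this, 24.9% of all tested genes were lower, and the list's median log2 fold change was -0.10, that of all genes -0.03. Pdk4 and Fabp1 fall outside the naming rule and are given because the count is small. Pdk4, the kinase that shuts off pyruvate entry, had 22.2, 38.8 and 38.7 CPM, against 79.0, 53.0 and 130 CPM (log2 fold change -1.39, adjusted p = 0.0153). Fabp1 had only 8, 13 and 13 counts, against 150, 135 and 17 (log2 fold change -3.35, adjusted p = 0.00961). Like Ucp3, it was thus called at low counts. The list leaves out any targets of the receptor among the 32 genes and among the other lists of pathway genes, in which many genes were called higher. It therefore does not describe the receptor's targets as a whole.

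Ppara, which encodes PPAR-alpha, and Rxra, its partner, were called higher. Ppara had 79.8, 84.5 and 85.9 CPM in the KspCre-labelled libraries, against 34.2, 55.2 and 15.1 CPM in the Tfam f/f-labelled ones (log2 fold change 1.25, adjusted p = 0.0338), and Hnf4a, a nuclear receptor of proximal tubule identity, had 870, 978 and 920 CPM, against 327, 481 and 169 CPM (1.502, adjusted p = 0.0109). Neither overlapped between the labels. Of 15 genes of malonyl-CoA control and transcription, 7 were called higher and 0 lower: Mlycd (0.95), Ppara, Rxra (0.90), Hnf4a, Lpin1 (1.02), Sirt3 (0.82) and Ppargc1b (0.49). Mlycd encodes the decarboxylase that removes malonyl-CoA, the inhibitor of CPT1.
The 8 that did not pass include both acetyl-CoA carboxylases that make malonyl-CoA, Acaca (0.31, adjusted p = 0.0929) and Acacb (-0.42, adjusted p = 0.0718). Acaca and Esrra were called higher without Tfam f/f-labelled replicate 2 (adjusted p = 0.00606 and 0.0402), and Acacb lower without replicate 3 of that label (0.00103). Ppargc1a, the coactivator PGC-1alpha, had 136, 128 and 126 CPM in the KspCre-labelled libraries, against 119, 153 and 119 CPM in the Tfam f/f-labelled ones (log2 fold change -0.01, adjusted p = 0.962), so that the labels overlapped. Esrra stood at 0.39 (adjusted p = 0.0628), and Esrrg, Ppard, Rxrb and Sirt5 between -0.10 and -0.05. Calls of Ppara, Lpin1 and Sirt3 were lost without any 1 of the KspCre-labelled libraries and without Tfam f/f-labelled replicate 1 (adjusted p = 0.0539 to 0.124). That of Ppargc1b was lost without any library but Tfam f/f-labelled replicate 2 (0.0826 to 0.160), and that of Hnf4a without Tfam f/f-labelled replicate 1 (0.0501). Over all alternatives the highest adjusted p was 0.168 for Ppara, 0.187 for Lpin1, 0.0872 for Sirt3, 0.700 for Ppargc1b and 0.0501 for Hnf4a.

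**Figure D5:**
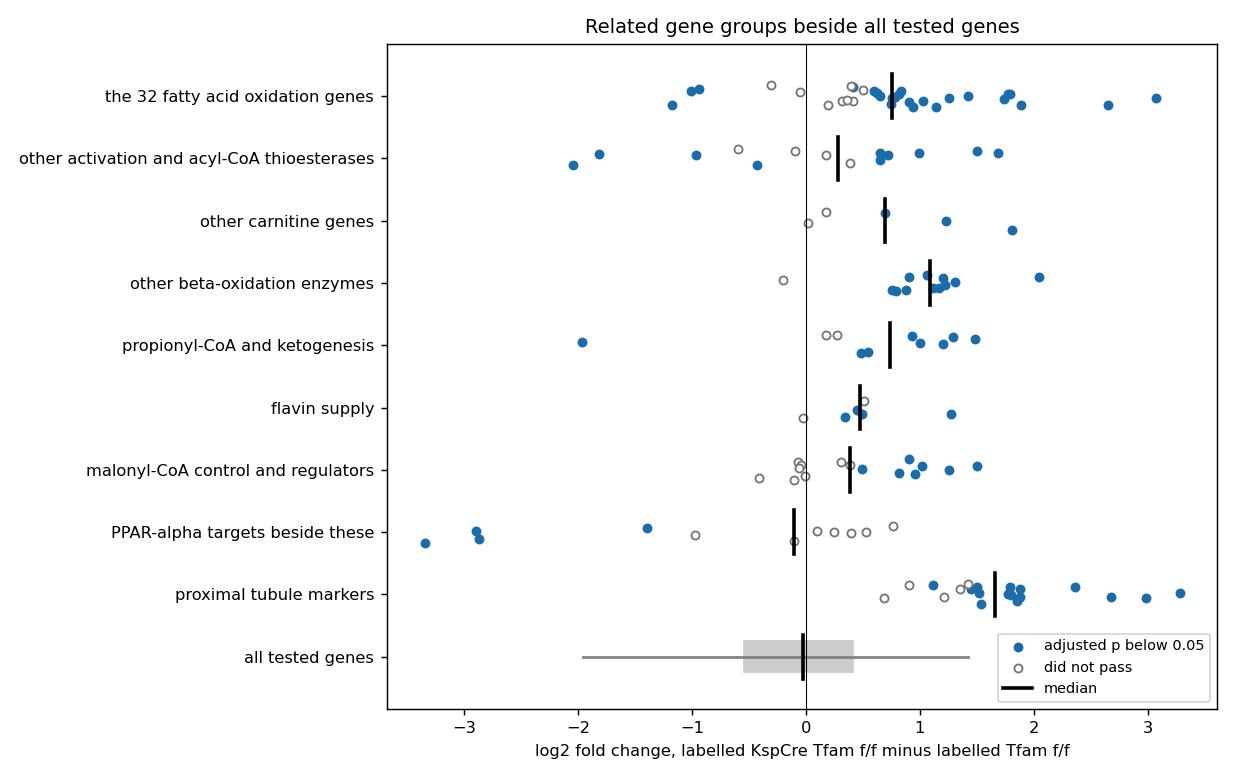
Log2 fold change, KspCre-labelled minus Tfam f/f-labelled, of each gene of the 32, of 7 groups of related genes and of the proximal tubule markers, with the median of each group as a black line; filled points passed an adjusted p of 0.05. For all 17308 tested genes the grey box spans the quartiles (-0.54 to 0.42) and the line the 5th to 95th percentile (-1.95 to 1.42); the medians run between 0.28 and 1.66 for all groups drawn except the PPAR-alpha targets (-0.10).

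Markers of other cell types and tissues that a kidney sample can hold were measured beside these genes. Tubule markers beyond the proximal tubule had more higher than lower calls: of 8 for the thick ascending limb, 5 were called higher and 1 lower, and 7 of 12 of the distal tubule and collecting duct were called higher and 3 lower. Adipocyte markers, from a tissue that can cling to a kidney, had summed levels of 160, 154 and 164 CPM in the KspCre-labelled libraries, against 193, 281 and 161 CPM in the Tfam f/f-labelled ones. Pnpla2 alone made up 116.4, 123.2 and 111.3 CPM of these sums, against 149.2, 129.7 and 120 CPM. Fabp4 made up 40.68, 29.86 and 37.58 CPM, against 30.92, 70.02 and 25.01 CPM. Together they made up most of the sum in every library, and neither was called. The sums therefore say little about the other adipocyte markers. Of 9 adipocyte markers tested, 0 were called higher and 3 (33.3%) lower, against 24.9% lower of all tested genes. Adipoq, the defining marker, was at 0 in KspCre-labelled replicate 2 and at most 1.602 CPM in the other 2 of that label, against 1.47, 9.43 and 1.51 CPM in the Tfam f/f-labelled ones. The labels overlapped, and Adipoq was not called (log2 fold change -2.87, adjusted p = 0.0878). The high adipocyte library, Tfam f/f-labelled replicate 2, was also the highest for Cyp4a14 and Ucp3. For Cyp4a14 it was barely above replicate 1 of that label (447 and 435 CPM). That replicate 2 was also the highest of its label for 21 of the 32 genes. The part of adipocyte RNA in these results was not tested. The 6 markers each of adrenal cortex and skeletal muscle summed to at most 2.48 CPM in any library.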

How the data were processed

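RNA-seq was measured in 6 whole-kidney libraries, 3 per label. Per the labels' protocols, poly A+ RNA with an integrity number above 7 went into dUTP strand-specific libraries sequenced as 150-base pairs. The deposited tables hold raw read counts for each gene, not normalized by the authors. FastQC, Trim Galore, STAR 2.4.1d, HTSeq 0.11.0 and build mm10 are named by the submitters' processing notes. Settings, annotation and the strand used in counting are not given there. Summary lines of reads without a gene (16% to 20.4%) stayed out of library sizes and tests.

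edgeR 4.0.16 in R 4.3.3 was used for the tests: filterByExpr (minimum count 10, minimum total 15), TMM factors, robust glmQLFit, glmQLFTest and Benjamini-Hochberg adjustment over 17308 genes, called below 0.05. Log2 fold changes are KspCre-labelled minus Tfam f/f-labelled. CPM per kilobase used GENCODE M21 principal transcripts, and promoters came from RefSeq. The named genes are the 32, Tfam, the 6 other pathway genes with the smallest p in each direction among those called, and all regulators; 1 gene that this rule names is not reported here. At most 1 marker a cell type was to be named, and Adipoq, Pnpla2, Fabp4, Kap, Slc27a2, Pdk4, Fabp1 and Slc25a20 were added after their values were seen. The alternatives were other scalings and filters, DESeq2 1.42.0, limma 3.58.1 voom, the replicate number as a block, each library left out, and thinning to the shallowest total, which was added after seeing the data. The genes and lists were chosen with earlier results of these data known.

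Nothing in the labels says that libraries came from separate animals. P-values therefore reflect the spread between the 6 libraries alone, and that spread may be technical. Libraries of a label differed by more than counting noise (chi-square per degree of freedom 7.09 to 11.7 for the KspCre-labelled libraries, 63.1 to 164 for the Tfam f/f-labelled ones), so none was treated as a copy of another; this does not tell separate animals from separate preparations.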

Additional observations from a re-analysis of the deposited data

How the results depend on the processing

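Of the 32 genes, 12 kept their direction and call in all 16 alternatives, 16 lost or gained a call in at least 1 and 6 turned sign in at least 1. Scaling by library totals put the median of all genes at -0.46, against -0.03 with TMM factors, and gave 1680 genes higher and 8519 lower, so that 16.5% of called genes were higher, against 46.1%. Of the 32 genes, 12 were then higher and 5 lower; by step the higher calls were 1 in the carnitine shuttle, 2 dehydrogenases, 1 in the later steps (with 2 lower) and 1 in electron transfer, and the other pathway genes had 22 higher and 21 lower. Signs turned there for Acsl1 (-0.22), Acadvl (-0.012), Echs1 (-0.102), Eci1 (-0.053), Eci2 (-0.011), Acaca (-0.11) and Esrra (-0.027). The median of the 32 genes minus that of all genes was 0.78 under TMM factors and 0.80 under library totals. Hadha, Acaa2, Acacb, Ppard, Rxrb, Ppargc1a, Esrrg and Sirt5 were called lower there (log2 fold changes -0.83 to -0.43). Without a filter, activation had 3 genes higher and the proximal tubule markers 7. After thinning, the carnitine shuttle had 1 gene lower. Fewer libraries leave fewer degrees of freedom, and leaving out 1 library gave 2276 to 4652 genes higher and 2822 to 4942 lower in all, with 11 to 22 of the 32 higher and 2 to 3 lower. By step the higher calls were 2 to 5 in activation, 1 to 4 in the carnitine shuttle (1 to 2 lower), 2 to 4 dehydrogenases, 1 to 4 in the later steps (0 to 1 lower) and 1 to 3 in electron transfer. The other pathway genes had 23 to 42 higher and 7 to 12 lower, and the proximal tubule markers 4 to 19 higher. On leaving out a library signs turned for Hadha (0.027 and 0.074; range -0.204 to 0.074), Esrrg (0.173; -0.214 to 0.173), Sirt5 (0.014 and 0.039; -0.151 to 0.039), Acsl1 (-0.019; -0.019 to 0.407) and Ppargc1a (0.012, 0.024 and 0.145; -0.074 to 0.145). Ppargc1a also turned with RLE factors (0.012), DESeq2 (0.012), voom (0.010), no filter (0.001) and the block (0.001). The cause of these shifts was not tested. Same-numbered libraries of the 2 labels did not deviate together (correlations -0.241, -0.072 and -0.058), and not every library correlated best with its own number. With the replicate number as a block, 3227 genes were higher and 3586 lower, and 20 of the 32 genes higher and 3 lower. Counts of Cpt1b and Cpt1c were too low for a firm size of change, and 3 libraries per label limit every call.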
